A study of Mus musculus with 6 samples.

Results

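The transcription factors HNF4A and HNF4G, FOXA1, FOXA2 and FOXA3, ONECUT1, GATA4 and GATA6 were followed in islet cells of newborn mice that were sorted by a lineage tracer of *Wnt4*. All probes of the array whose transcript belongs to 1 of these 8 genes were taken, whatever their values, which gave 10 of 56605 probes and 8 of 22911 genes with a symbol. *Hnf4a* and *Gata4* have 2 probes each and the other 6 genes have 1. The islets came from postnatal day 1 (P1) *Wnt4eGFPCre; mTmG* pups of crosses to C57BL/6J, whose sex is not given in the sources used here. In these pups a knock-in at the *Wnt4* locus drives Cre, and cells in which Cre has acted switch a reporter from a red membrane protein to membrane GFP (mGFP). By the methods both populations were sorted from such pups and so carry the Cre knock-in and the reporter, but a legend of the study calls the lower population Cre-negative and the labels do not settle which holds. No treatment was given. mGFP+ cells (Wnt4hi) and mGFP- cells (Wnt4low) were compared on 3 arrays each, Wnt4hi replicates 2, 3 and 4 and Wnt4low replicates 1, 3 and 4, and each sample was a pool of islets from 3 or 4 pups. The tracer marks cells that have expressed *Wnt4* by P1 and not its present level, and it is not restricted to one islet cell type. The labels do not say whether mGFP+ and mGFP- samples with the same number came from the same pups.

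These factors build the gut endoderm and its organs. FOXA proteins bind compacted chromatin and open it for other factors, and they are needed for pancreas formation, for *Pdx1* transcription and for the secretory machinery of mature β-cells. ONECUT1 (HNF6) acts in the pancreatic progenitors that give rise to endocrine cells and is switched off as β-cells form. HNF4A is a nuclear receptor of liver, gut, kidney and islets, and loss of 1 copy in humans causes maturity onset diabetes of the young (MODY). HNF4G is its close relative in gut and islets. GATA4 and GATA6 are zinc finger factors of the early pancreatic bud, and human *GATA6* mutations can leave the pancreas unformed.

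*Foxa2*, *Foxa3* and, by its brighter probe, *Hnf4a* were higher in Wnt4hi cells, by 1.49, 1.45 and 0.99 on the log2 scale, which is 2.81-fold, 2.74-fold and 1.98-fold in normalized intensity. They passed the unadjusted threshold of 0.05 that the study used for these arrays in limma's fit over all 56605 probes. So 3 of 8 factors passed it, each higher in Wnt4hi, beside 11% of all probes in either direction. Of all probes 4.84% passed it higher in Wnt4hi and 6.15% lower, and of the 39694 probes that the software marked as bright on each of the 3 arrays of at least 1 population 6.31% passed it higher. After Benjamini-Hochberg adjustment over all probes 0 of 8 passed in limma, beside 0.475% of all probes in either direction and 0.438% of all probes that were lower in Wnt4hi. *Gata6*, *Gata4*, *Onecut1*, *Hnf4g* and *Foxa1* did not pass either threshold. The dimmer *Hnf4a* probe (0.16) did not pass, nor did *Hnf4a* with the mean of both probes (0.57). *Foxa2* and *Foxa3* were among the genes that the study displayed after choosing them on these same arrays, so their direction here is no independent evidence. In such bulk samples, fewer cells of a type and less RNA per cell cannot be told apart.

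RefSeq promoters were held for 5 of the 8 factors, with 8 start sites in all (assembly GRCm38.p6, 250 bases before and 50 bases after each start). Those of the 3 factors that passed the threshold are printed here because these genes shared a direction between the populations, 5′ to 3′ on the strand of the gene. Capitals mark the letters of a searched motif. For *Hnf4a* the windows of both its starts are given, since its upstream promoter is the one known from islets and its downstream promoter the one known from liver. They lie at chr2:163506607-163506906 and chr2:163546905-163547204 on the plus strand. The window of the first *Foxa2* start lies at chr2:148046920-148047219 and that of *Foxa3* at chr7:19023490-19023789, both on the minus strand.
Hnf4a, upstream start: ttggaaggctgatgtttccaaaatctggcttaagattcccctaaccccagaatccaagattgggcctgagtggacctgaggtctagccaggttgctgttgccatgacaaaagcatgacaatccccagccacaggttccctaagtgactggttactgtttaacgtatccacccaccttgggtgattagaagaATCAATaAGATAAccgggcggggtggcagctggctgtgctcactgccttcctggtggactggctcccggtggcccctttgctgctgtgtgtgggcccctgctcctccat
Hnf4a, downstream start: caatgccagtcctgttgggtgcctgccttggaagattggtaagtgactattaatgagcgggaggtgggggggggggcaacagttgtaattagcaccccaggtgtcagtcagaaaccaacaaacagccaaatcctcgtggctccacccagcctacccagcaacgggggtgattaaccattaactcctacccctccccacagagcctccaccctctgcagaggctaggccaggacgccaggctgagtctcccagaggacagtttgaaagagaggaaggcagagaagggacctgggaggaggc
Foxa2, first start: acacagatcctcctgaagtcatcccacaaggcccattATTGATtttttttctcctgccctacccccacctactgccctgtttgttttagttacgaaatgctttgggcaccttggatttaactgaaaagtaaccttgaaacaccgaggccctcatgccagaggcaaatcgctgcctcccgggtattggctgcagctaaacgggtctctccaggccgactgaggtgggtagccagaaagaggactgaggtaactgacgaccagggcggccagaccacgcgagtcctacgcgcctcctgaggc
Foxa3: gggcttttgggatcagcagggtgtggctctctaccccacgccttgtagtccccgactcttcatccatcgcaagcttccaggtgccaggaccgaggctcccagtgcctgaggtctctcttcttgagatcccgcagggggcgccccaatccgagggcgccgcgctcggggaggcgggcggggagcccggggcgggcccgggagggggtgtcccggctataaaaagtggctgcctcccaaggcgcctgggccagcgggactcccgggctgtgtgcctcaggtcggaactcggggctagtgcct

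Motifs were searched on both strands. The letters were TGTTTAC or TATTTAC for forkhead factors, AGATAA or TGATAA for GATA factors, ATTGAT or ATCGAT for ONECUT factors and CAAAGTCCA for HNF4. The upstream window of *Hnf4a* held ATTGAT on the opposite strand, 59 bases before the start, and, after 1 further base, AGATAA, 52 bases before the start. The first *Foxa2* window held ATTGAT at 213 bases before the start, and the most downstream *Foxa2* window held AGATAA at 183 bases before its start. The *Foxa1* window held TGTTTAC on the opposite strand, 141 bases before the start. The downstream *Hnf4a* window, the middle *Foxa2* window and the windows of *Foxa3* and *Onecut1* held 0 matches. Of 32841 RefSeq promoter windows of this length, 8.4% held the ONECUT letters, 18.6% the GATA letters, 6.55% the forkhead letters and 0.475% the HNF4 letters. A match describes the letters and no binding was measured.

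RNA of the sorted cells was amplified, labelled with Cy5 and hybridised to 1-color arrays that lie on 1 slide. Between 70.5% and 79.5% of 59305 spots per array were well above background by the scanner software, and 0 spots were saturated. *Wnt4* itself, the check of the sort, read 11.20, 10.53 and 10.77 in Wnt4hi and 9.85, 10.11 and 9.31 in Wnt4low, so the populations did not overlap. It was 1.08 higher in Wnt4hi (SE 0.27, limma adjusted p = 0.206). All values below are normalized log2 intensities, levels are compared only within a probe, and a difference is Wnt4hi minus Wnt4low. Nothing in the labels says that the pools of a population are separate litters, so the p-values measure the spread between these pools. The number of arrays limits the precision of every value.

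*Foxa2*, the pioneer factor that the adult β-cell keeps, had a difference that stood with that of *Foxa3* above those of the other factors with a measured level, and the order of these 2 changed with the processing. It read 12.92, 12.82 and 12.89 in Wnt4hi replicates 2, 3 and 4 and 10.78, 11.89 and 11.49 in Wnt4low replicates 1, 3 and 4. The Wnt4hi arrays lay within a narrow band, the Wnt4low arrays were spread, and a gap of 0.93 separated the lowest Wnt4hi from the highest Wnt4low array. The means were 12.88 ± 0.05 and 11.39 ± 0.56 (SD, n = 3 each), and the difference was 1.49 (SE 0.29, 95% interval 0.79 to 2.19, limma adjusted p = 0.114). Of all probes, 2.66% differed by at least as much in either direction. The lowest array, Wnt4low replicate 1, did not decide the value, since the difference was 1.16 without it.

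*Foxa3*, the relative known mainly for glucose metabolism genes in the liver, had a difference of like size. It read 10.21, 9.24 and 10.25 in Wnt4hi and 8.26, 8.99 and 8.07 in Wnt4low. Wnt4hi replicate 3 was the low array of its population and Wnt4low replicate 3 the high array of its own, and the gap between them was 0.25. The means were 9.90 ± 0.57 and 8.44 ± 0.49 (SD, n = 3 each), and the difference was 1.45 (SE 0.37, 95% interval 0.56 to 2.35, limma adjusted p = 0.204). When the replicate number entered as a fixed term, *Foxa3* no longer passed the unadjusted threshold (difference 1.21). The labels do not settle whether these numbers pair the samples.

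*Foxa1*, which acts with *Foxa2* in the pancreatic bud and in α-cells, was well above background on 0 of 6 arrays. It read 6.69, 6.69 and 6.50 in Wnt4hi and 6.58, 6.99 and 6.69 in Wnt4low. Both populations were thus at the level of background, and no difference is given for this probe. A probe that is not well above background does not show that the transcript is absent.

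The FOXA genes were set against each other within each array, as the difference of a pair, and these pair differences were compared between populations by an exact two-sided permutation test, adjusted over 5 pairs of family members. The smallest p that 3 against 3 arrays allow is 0.1, so the design cannot reach 0.05. The change of *Foxa2* exceeded that of *Foxa3* by 0.03 (SE 0.40, exact p = 1, adjusted p = 1), and this value changed sign under other background corrections. The pairs with *Foxa1* are not given, because they would rest on a probe at background.

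**Figure D1:**
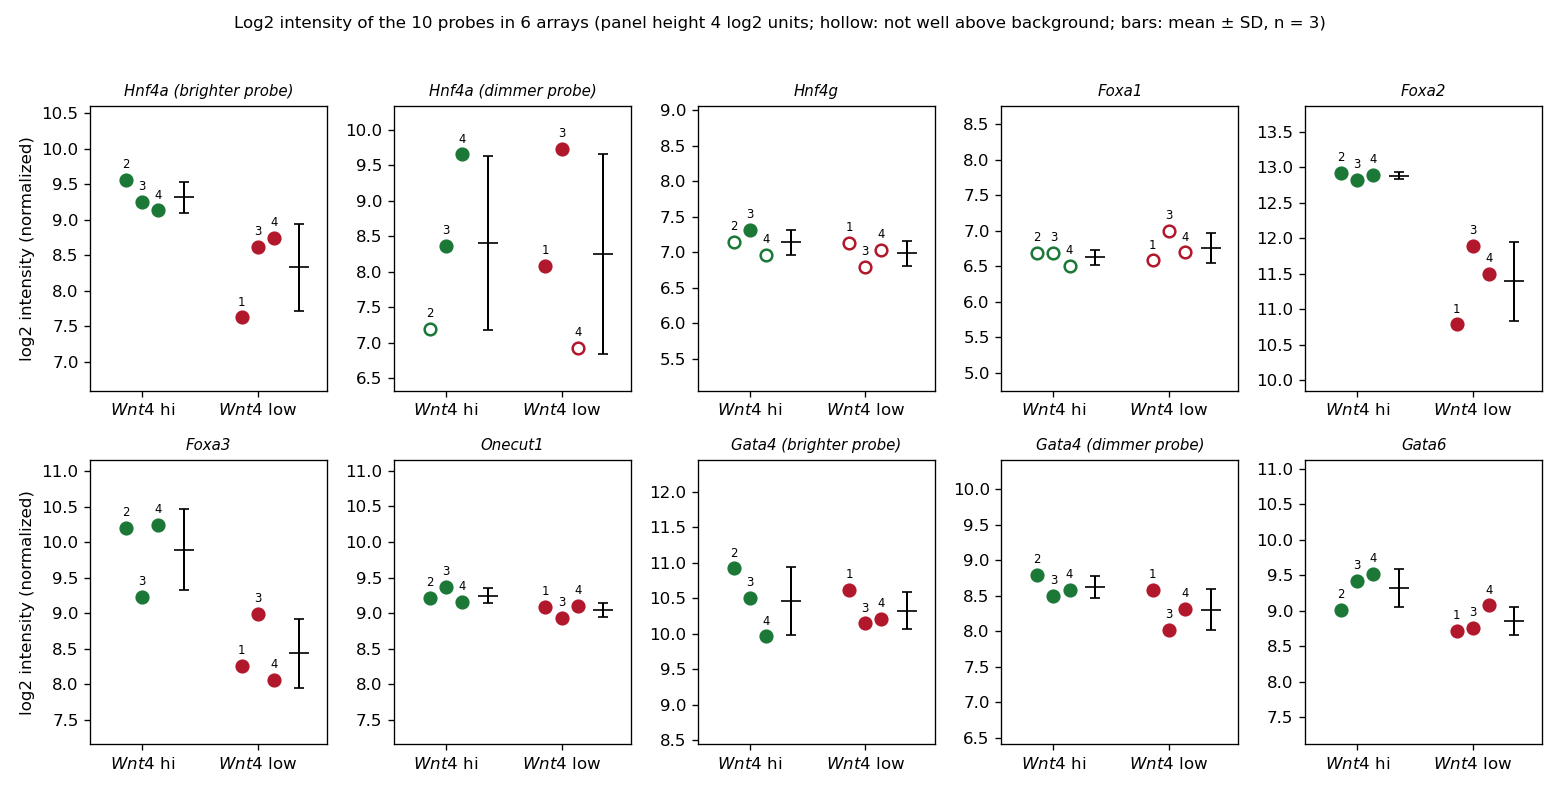
Normalized log2 intensity (y axis) of the 10 probes of the 8 factors in the 3 Wnt4hi (green) and 3 Wnt4low (red) arrays, numbered by replicate, with mean and SD as bars; every panel spans 4 log2 units, panels start at different levels, and hollow points were not well above background. *Foxa2*, *Foxa3*, the brighter *Hnf4a* probe and, by a gap of 0.05, *Onecut1* have no overlap between the populations, whereas the dimmer *Hnf4a* probe is scattered over both.

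*Hnf4a* was read by a pair of probes that list the same transcript and differed. The brighter one read 9.56, 9.25 and 9.13 in Wnt4hi and 7.63, 8.62 and 8.75 in Wnt4low. Wnt4low replicate 1 was again the lowest array, and the populations were 0.39 apart. The means were 9.32 ± 0.22 and 8.33 ± 0.61 (SD, n = 3 each), and the difference was 0.99 (SE 0.33, 95% interval 0.19 to 1.78, limma adjusted p = 0.331).

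This call was the least stable of the 3. Without Wnt4low replicate 1 the difference was 0.63 and still passed the unadjusted threshold, and without Wnt4hi replicate 2 it was 0.86 and did not. With the mean of both probes it was 0.57 and with the authors' own normalized values 0.65, and neither passed. The same held with the replicate number as a fixed term (0.51). The dimmer probe was well above background on 4 of 6 arrays and read 7.19, 8.36 and 9.65 in Wnt4hi and 8.08, 9.73 and 6.93 in Wnt4low. Its high and low arrays fell in both populations, and its difference of 0.16 had a 95% interval from -1.98 to 2.30, which holds the value of the brighter probe and 0. Which of the 2 probes is the better measure of *Hnf4a* was not tested.

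*Hnf4g* was well above background on 1 array, Wnt4hi replicate 3. It read 7.14, 7.31 and 6.96 in Wnt4hi and 7.13, 6.79 and 7.03 in Wnt4low, and the populations overlapped. No difference is given for this probe, nor for its pair with *Hnf4a*.

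*Onecut1*, the progenitor factor, was well above background on all 6 arrays. It read 9.21, 9.37 and 9.16 in Wnt4hi and 9.09, 8.94 and 9.10 in Wnt4low. The populations did not overlap, but the gap was 0.05 and the whole range over the 6 arrays was small. The difference was 0.20 (SE 0.14, 95% interval -0.13 to 0.53, limma adjusted p = 0.695). With *Onecut1*, 4 of 8 factors had no overlap, each higher in Wnt4hi, beside 16.4% of all probes in either direction and 9.22% of all probes in that direction.

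*Gata6*, the GATA factor with the stronger tie to human pancreas formation, came close to the unadjusted threshold (limma unadjusted p = 0.0539, adjusted p = 0.467). It read 9.01, 9.42 and 9.52 in Wnt4hi and 8.71, 8.76 and 9.08 in Wnt4low. Wnt4hi replicate 2 lay below Wnt4low replicate 4, and the other arrays were ordered by population. The difference was 0.47 (SE 0.20, 95% interval -0.01 to 0.94), and *Gata6* passed the unadjusted threshold under 5 of 20 other settings. Among them were the authors' normalized values (0.55, limma unadjusted p = 0.00494), the fit without Wnt4hi replicate 2 (0.61) and that without Wnt4low replicate 4 (0.58). The authors' column for Wnt4hi replicate 2 followed its scanner array less closely than the other columns followed theirs (correlation within the population 0.305).

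*Gata4*, its partner in the early bud, was read by a pair of probes that were well above background on all 6 arrays. The brighter one read 10.92, 10.50 and 9.96 in Wnt4hi and 10.62, 10.15 and 10.21 in Wnt4low. Wnt4hi held both the highest and the lowest array, so the populations overlapped. Its difference was 0.14 (SE 0.28, 95% interval -0.55 to 0.82, limma adjusted p = 0.918), with -0.09 when Wnt4hi replicate 2 was left out.

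The dimmer *Gata4* probe read 8.80, 8.50 and 8.58 in Wnt4hi and 8.59, 8.02 and 8.32 in Wnt4low, with a difference of 0.32 (SE 0.19, limma adjusted p = 0.654) that was 0.18 without Wnt4low replicate 3. Its populations overlapped as well, through Wnt4low replicate 1. Within arrays the change of *Gata4* fell short of that of *Gata6* by a difference of -0.33 (SE 0.48, exact p = 0.5, adjusted p = 0.625), so a different response of the 2 GATA factors was not shown.

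For the 6 factors that were well above background on all 6 arrays by their brighter probe, the differences ran from 0.14 for *Gata4* to 1.49 for *Foxa2*, beside a median of 0.06 over all probes. *Foxa2* and *Foxa3* were followed by *Hnf4a*, *Gata6*, *Onecut1* and *Gata4*, and the 95% intervals of neighbours in this order overlapped. The place of *Gata4* depends on the probe. *Foxa1* and *Hnf4g* have no place in the order.

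**Figure D2:**
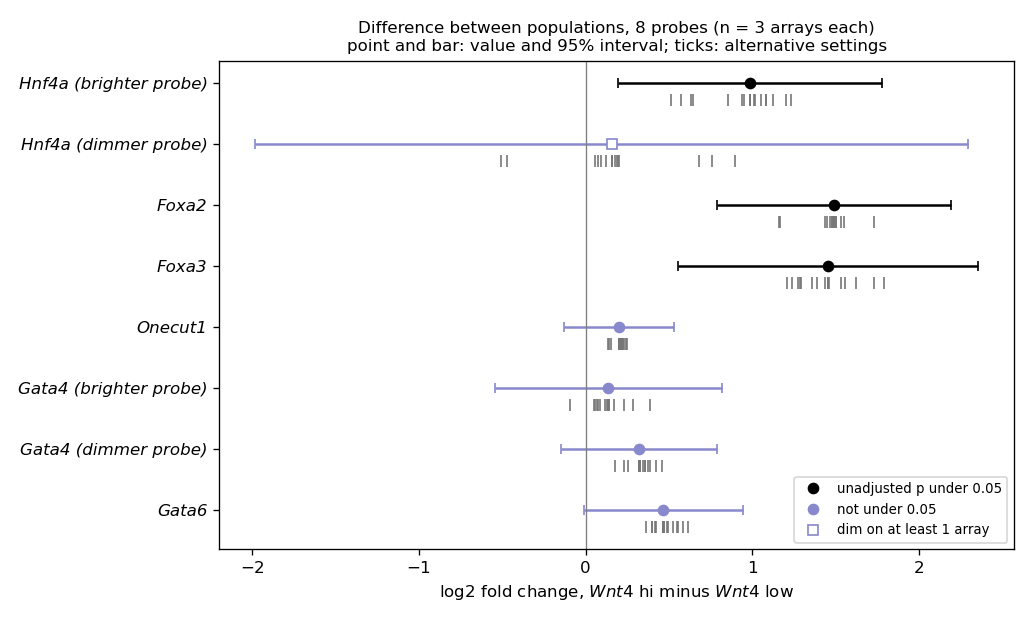
Log2 fold change of the 8 probes of *Hnf4a*, *Foxa2*, *Foxa3*, *Onecut1*, *Gata4* and *Gata6*, Wnt4hi minus Wnt4low (x axis), with its 95% interval from limma (3 arrays per population); black points passed an unadjusted p of 0.05, the hollow square was not well above background on at least 1 array, and ticks below each point give the value under the other settings tried. *Foxa2* stays between 1.16 and 1.73 and *Foxa3* between 1.21 and 1.79. *Hnf4a* runs from 0.51 to 1.23 beside its brighter probe, where the ticks include the mean of both probes and the authors' values. The interval of its dimmer probe spans -1.98 to 2.30.

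Genes around these factors were taken from lists of textbook relatives, cofactors and targets, and each list is described by its counts and its median beside 0.06, the median of all probes. Of 14 relatives of the same families, 0 passed the unadjusted threshold higher in Wnt4hi and 4 passed it lower, with a median of -0.19 that was -0.12 without Wnt4low replicate 1 and -0.29 without Wnt4low replicate 3. *Gata2*, the GATA factor of blood and endothelial cells, was well above background on 3 of 3 Wnt4low and 0 of 3 Wnt4hi arrays. With the Wnt4hi arrays raised to at least the lowest value well above background, its mean signal there was 9.56-fold lower. This bound concerns detection and holds no sampling error. The fitted difference of *Gata2* had an SE of 0.63 (limma adjusted p = 0.0859). *Nr2f1* and *Nr2f2*, nuclear receptors of mesenchyme and vessels that can bind the direct repeats also used by HNF4, were lower by differences of -1.79 and -1.11, and *Rxra*, the common partner of nuclear receptors, by -0.45. *Gata5* and *Onecut2*, relatives of factors that did not pass, differed by 0.21 and 0.23 and did not pass either. Of 9 cofactors, such as the GATA partner *Zfpm1* and the HNF4 coactivator *Ppargc1a*, 0 passed in either direction. Their median of 0.28 was the value of *Ppargc1a*, which was well above background on 1 Wnt4hi and 1 Wnt4low array. The median was 0.046 without Wnt4hi replicate 3, 0.11 without Wnt4hi replicate 2 and 0.075 with the mean of the probes.

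The target list with the highest median was that of FOXA. All 12 of its genes were above 0, 5 passed the unadjusted threshold higher and 0 lower, and the median was 1.09. *Abcc8*, the sulfonylurea receptor subunit of the KATP channel, was higher by 1.92, its pore subunit *Kcnj11* by 0.88, the islet amyloid peptide *Iapp* by 0.97, *Pdx1*, the pancreatic homeobox factor, by 1.84, and the prohormone convertase *Pcsk2* by 1.21. The other 7 genes of the list did not pass the threshold, with differences of 0.17 for *Alb*, 0.20 for *Cps1*, 0.26 for *Hadh*, 0.32 for *Tat*, 1.21 for *Igfbp1*, 1.28 for *Gcg* and 1.41 for *Ttr*. Without Wnt4low replicate 1 the median of the FOXA list was 0.72. *Pdx1* and *Iapp* are also on the list of β-cell markers read below, and *Gcg* and *Ttr* on that of α-cell markers. The part that the cell types had in this median was not tested.

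Of 16 targets of HNF4 and HNF1, 15 were above 0, 5 passed the unadjusted threshold higher and 0 lower, and the median was 0.14. It was 0.26 without Wnt4low replicate 1 and 0.24 without Wnt4hi replicate 4. Those that passed were the glucose transporter *Slc2a2* (1.67), *Tm4sf4*, a membrane protein of islets and liver (1.68), *Cltrn*, a membrane protein of β-cells (1.27), the glycolytic enzyme *Pklr* (1.02) and the lipoprotein *Apob* (0.55). The other apolipoproteins of the list, *Apoa1*, *Apoa2*, *Apoa4*, *Apoc3* and *Apoh*, had differences from -0.09 to 0.13 and did not pass. The intestinal and hepatic fatty acid binding protein *Fabp1* was well above background on 0 of 6 arrays, so its place among the 15 above 0 gives no direction.

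The 10 GATA targets were divided, with 5 above and 5 below 0, 1 that passed the unadjusted threshold higher, 3 that passed it lower and a median of -0.03 that was -0.13 without Wnt4low replicate 3 and 0.020 without Wnt4low replicate 1. *Pdx1* was the one that was higher. *Shh*, among the 5 above 0, was well above background on 0 of 6 arrays, so its sign gives no direction. *Dab2*, an endocytic adaptor of extraembryonic endoderm and of macrophages, was lower by -2.40 (SE 0.29) and was the only gene of these target lists that passed after adjustment (limma adjusted p = 0.0439), *Nr5a2*, a nuclear receptor of acinar cells, was lower by -1.20 and the vascular adhesion molecule *Vcam1* by -1.05. Of 7 ONECUT1 targets, 7 were above 0, 3 passed higher and 0 lower, with a median of 0.38 that was 0.63 without Wnt4hi replicate 4. That median was the value of *Pkhd1*, which was well above background on 1 Wnt4hi and 0 Wnt4low arrays. With the filter on dim probes the median was 0.65. The 3 targets that passed were *Foxa2* itself, *Cys1*, a protein of cilia (1.10), and the homeobox gene *Prox1* (0.93). *Neurog3*, the endocrine progenitor factor that ONECUT1 switches on, differed by 0.32 and *Sox9* by 0.36, and neither passed.

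*Hnf4a*, *Hnf4g*, *Foxa2*, *Foxa3* and *Onecut1* belong to the MODY pathway, a term that the study itself found on these arrays, so what follows is no independent evidence of a direction. Of 22 other genes listed for this pathway, 17 were above 0, 12 passed the unadjusted threshold higher and 3 lower, 0 passed after adjustment, and the median was 0.82. *Pdx1* and *Slc2a2* were among those with the highest values, and *Nkx6-1*, a homeobox factor of β-cells, was higher by 1.35. The 3 that were lower were *Hhex*, a homeobox factor of δ-cells (-1.75), *Nr5a2* and the Notch target *Hes1* (-0.85). The insulin gene *Ins2* was higher by 0.56.

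**Figure D3:**
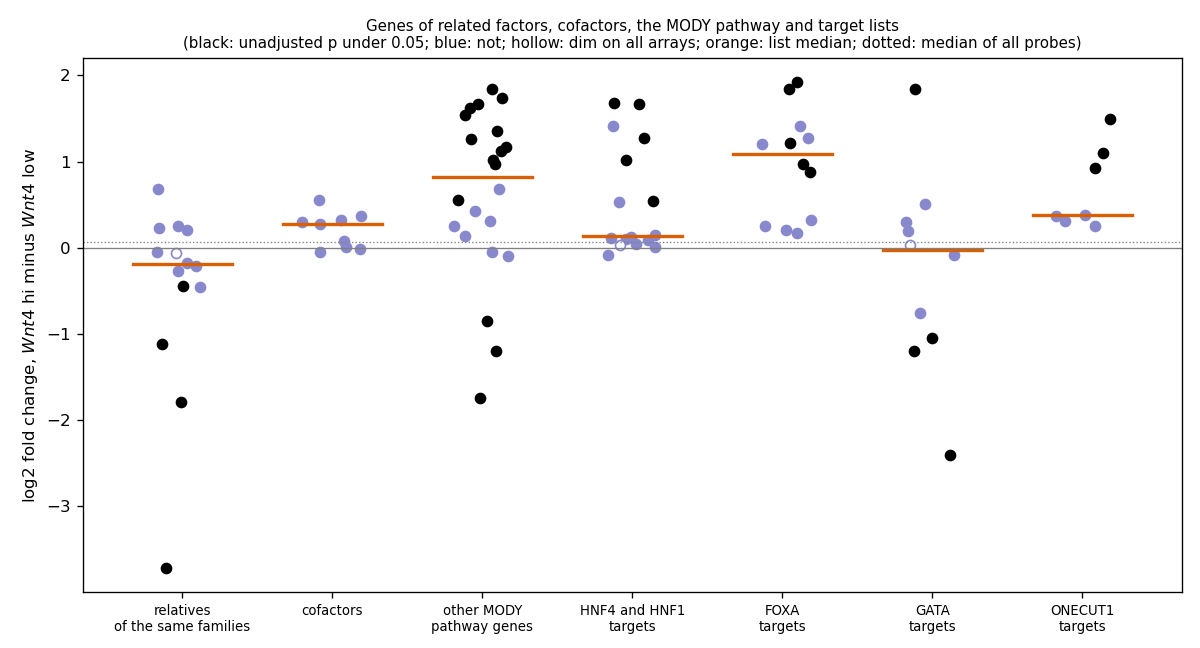
Log2 fold change, Wnt4hi minus Wnt4low (y axis), of each gene in 7 lists (x axis); black points passed an unadjusted p of 0.05, hollow points were dim on all arrays, orange lines are list medians and the dotted line is the median of all probes at 0.06. The FOXA target list has the highest median at 1.09, and the family relatives have the lowest at -0.19 with *Gata2*, which was not above background in Wnt4hi, at the bottom.

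Markers of several cell types differed between the populations together with the factors. Markers of β-, α-, PP- and ε-cells were higher in Wnt4hi. Of 10 β-cell markers 9 were above 0 and 6 passed the unadjusted threshold higher, and their summed level was 18.32 to 18.36 in Wnt4hi and 17.54 to 18.16 in Wnt4low. Among them *Iapp*, *Ins1*, *Ins2*, *Mafa*, *Nkx6-1*, *Pdx1* and *Slc2a2* are also on the MODY pathway list, so both lists partly count the same genes. Of 6 α-cell markers 6 were above 0 and 3 passed higher, with a summed level of 15.89 to 16.66 in Wnt4hi and 13.33 to 15.78 in Wnt4low. The δ-cell markers were divided, with 1 of 4 that passed higher and 2 that passed lower, whereas the PP-cell hormone *Ppy* and the ε-cell hormone *Ghrl* were higher by 1.22 and 2.10.

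Endothelial and mesenchymal markers were lower in Wnt4hi. All 11 endothelial markers passed lower, 8 of them after adjustment, with a median of -3.69 and a summed level of 12.11 to 12.67 in Wnt4hi and 15.25 to 16.07 in Wnt4low. The endothelial receptors *Tek* and *Tie1* were well above background on 0 of 3 Wnt4hi arrays. Of 10 mesenchymal and pericyte markers, 10 were below 0 and 6 passed lower, with a summed level of 15.11 to 16.05 in Wnt4hi and 16.34 to 16.76 in Wnt4low. The acinar sum was 12.95 to 13.06 in Wnt4hi and 12.91 to 14.46 in Wnt4low, with 1 of 10 markers that passed higher and 2 lower. Of 7 ductal markers 0 passed higher and 1 lower, of 8 macrophage and leukocyte markers 0 and 3, of 5 Schwann and neural crest markers 0 and 1, and of 5 erythroid markers 0 and 1.

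Since several of the factors are also known from liver and gut, markers of these organs were read as well. Of 6 hepatocyte markers 1 passed higher and 0 lower, with a median of 0.05. The one that passed was the fibrinogen chain *Fgb* (1.93, limma adjusted p = 0.123). *Fgb*, *Alb*, *Apoa1* and *Cyp2e1* were well above background on all 6 arrays, *Ahsg* on 5 and *Afp* on 0. Of 5 markers of the intestinal epithelium 0 passed. *Lgals4* and *Vil1* were well above background on all 6 arrays, and the homeobox factors *Cdx1* and *Cdx2* and the cadherin *Cdh17* on 0 of 6.

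Wnt4low replicate 1 had the lowest summed level of α-cell (13.33) and β-cell markers (17.54) and the highest of endothelial markers (16.07), and it was also the array with the lowest *Foxa2* and brighter *Hnf4a* reading. Without it, *Foxa2* (1.16), *Foxa3* (1.36) and *Hnf4a* (0.63) still passed the unadjusted threshold. The part that the cell types in each population had in the differences of the factors and of the target lists was not tested.

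**Figure D4:**
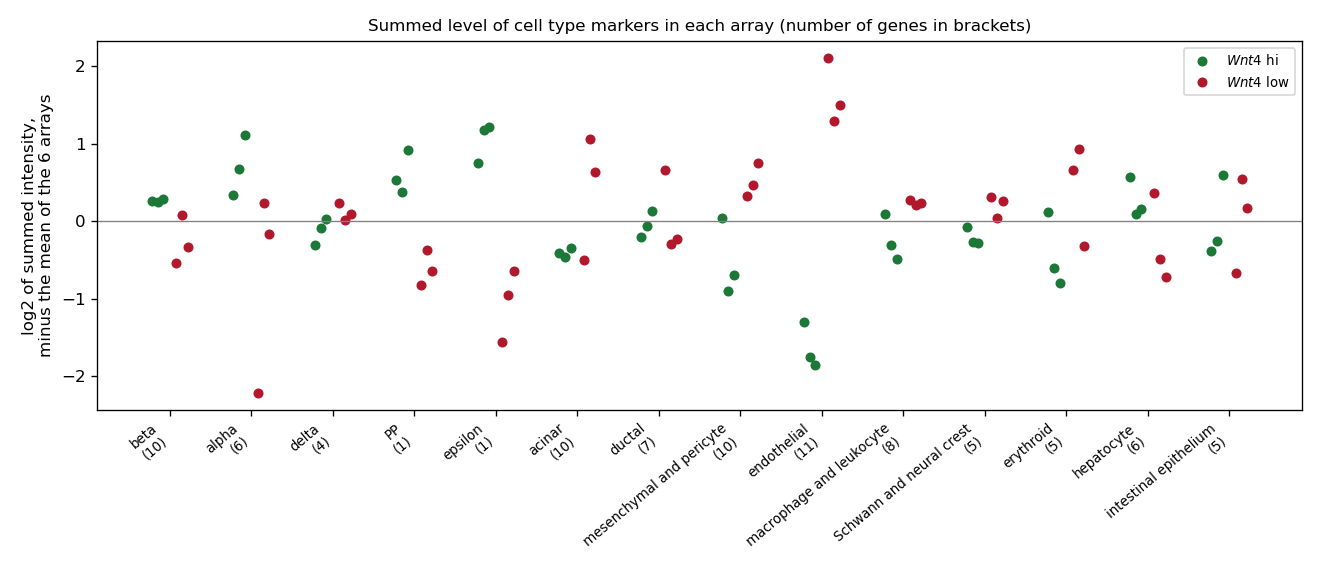
Log2 of the summed intensity of each list of cell type markers, minus the mean of the 6 arrays (y axis), for the 3 Wnt4hi (green) and 3 Wnt4low (red) arrays, with the number of genes in each list in brackets (x axis). β-cell, α-cell, PP-cell and ε-cell markers are higher in Wnt4hi, endothelial and mesenchymal markers are higher in Wnt4low, and 1 Wnt4low array lies far below the others for α-cell markers.

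For each factor that was well above background on all 6 arrays, the genes with the most similar profile were looked up among 16154 genes that were also well above background on all arrays. The measure was the root mean square difference of log2 values over the 6 arrays, after each profile had been centred on its own mean. For *Foxa2* these were *Enpp2* (0.11), *Bex2* (0.14) and *Suox* (0.14), and for *Foxa3* *Pappa2* (0.091), *Serpina1c* (0.21) and *Cpeb3* (0.23). For *Hnf4a* they were *Synrg* (0.11), *B630019K06Rik* (0.11) and *Helq* (0.11). *Gata6* was closest to *Ascc3* (0.070), *Hadhb* (0.073) and *Thoc7* (0.088) and *Gata4* to *St3gal3* (0.040), *Serpina4-ps1* (0.053) and *Usf1* (0.054). *Onecut1*, whose profile was the flattest of these 6, was closest to *Gm7134* (0.025), *Syk* (0.028) and *4930511E03Rik* (0.032). With 6 arrays and this many candidates a small value is easily met, and a flat profile meets it with more genes.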

How the data were processed

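The authors deposited the scanner output of the 6 arrays, in which each spot has a red (Cy5) intensity and a local background without any normalization, beside an intensity corrected by the software. The labels name Feature Extraction 9.1 and the file headers 12.0.1.1. Their own normalized log2 values (36693 features), also deposited, served as an alternative. Median intensities were corrected with normexp (offset 50), normalized by quantiles and averaged per probe in limma 3.58.1 (R 4.3.3), and spots marked as outliers were left out. Of 27845 RefSeq-type probe names 25126 matched a table of RefSeq genes (GRCm38.p6), used for names. Wnt4hi and Wnt4low were compared with lmFit and eBayes over 56605 probes, with no covariate, and p-values were adjusted by Benjamini-Hochberg over all of them. The brightest probe stood for a gene in lists. A bound sets dim arrays to the higher of their own value and the lowest value well above background. The calculation was tested on simulated data.

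All members were named with all probes, the genes of each list that passed the unadjusted threshold with the largest changes (at most 3 per direction, not all printed), further list genes chosen after their values were seen, and the 3 nearest profiles per member. The members and lists were chosen with earlier results of these data known. The alternatives changed the background correction, normalization, filter, probe choice, variance model, values and replicate block, or omitted 1 array. All arrays lie on 1 slide, so no batch was tested.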

Additional observations from a re-analysis of the deposited data

How the results depend on the processing

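Over 20 other settings, *Foxa2* passed the unadjusted threshold in 20 (1.16 to 1.73), *Foxa3* in 19 (1.21 to 1.79), *Hnf4a* in 15 (0.51 to 1.23) and *Gata6* in 5 (0.36 to 0.61). For *Hnf4a* the brighter probe was read, except with the mean of its probes and with the authors' values, where the first probe found was used. *Gata4* passed in 0 of 20, and *Onecut1*, *Hnf4g* and *Foxa1* in 0 of the 19 that gave a value, and 0 of the 8 passed after adjustment in any. Leaving out each array in turn gave 3 to 4 factors past the unadjusted threshold, beside 1923 to 2909 of 56605 probes higher and 2875 to 3510 lower, and 0 past the adjusted one.

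Only 2 replicate numbers occur in both populations, and the deviations of these pairs correlated at -0.0395 (number 3) and 0.192 (number 4) over 35289 probes. The latter was the highest of all combinations, followed by 0.188 for Wnt4hi replicate 2 and Wnt4low replicate 1. Both pools with number 4 held 3 pups, and both with number 3 held 4. These values do not settle whether the numbers pair the samples, and the main fit took no pairing. With the number as a fixed replicate block (2478 of 56605 probes higher and 3689 lower) 1 factor passed, *Foxa2*, whereas *Foxa3* (1.21, limma unadjusted p = 0.0669) and *Hnf4a* (0.51, limma unadjusted p = 0.0974) did not. As a random block (2998 higher and 3689 lower) 4 passed. An unpaired t-test on each probe, in place of limma, gave 2 factors at the unadjusted threshold, with 5169 of 56605 probes before and 0 after Benjamini-Hochberg. *Hnf4a* also did not pass with the mean of its probes (0.57) or the authors' normalized values (0.65).

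Signs turned where the values were near 0. The change of *Foxa2* minus that of *Foxa3* was -0.0256 with median centring, -0.0337 without background subtraction, -0.0528 with an offset of 16, -0.13 with the processed intensity and -0.26 to 0.28 when an array was left out, and that of *Gata4* minus *Gata6* was -0.707 to 0.0210. The dimmer *Hnf4a* probe ran from -0.51 to 0.90 and *Gata4* from -0.0926 to 0.385, with -0.47 for the former without Wnt4hi replicate 4 and -0.51 without Wnt4low replicate 4. Medians of target lists also moved, for HNF4 and HNF1 targets to 0.34, for GATA targets to -0.28 (0.029 with the fixed replicate block) and for ONECUT1 targets to 0.65 with the filter on dim probes, and for family relatives to -0.03 with the fixed replicate block. The cause was not tested.

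Of all probes, 269 passed after adjustment, 669 with a filter on dim probes, 0 with the fixed replicate block and 0 to 3 without an array, so the adjusted counts depend on every array. The dim *Foxa1* and *Hnf4g* probes limit what can be said of these genes. In the authors' table the column for Wnt4hi replicate 2 followed its array less closely than the other columns followed theirs (correlation within the population 0.305), and the probe of *Onecut1* was not found there.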
